A study of Homo sapiens with 12 samples.

Results

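*NRAS*, *BRAF*, *NF1*, *PIK3CA*, *AKT1* and *AKT2* are 6 genes of the RAS and PI3K signaling pathways, and they were taken here by their exact row names from expression tables of ovarian cancer cells treated with THZ1. They are 6 of 23621 gene rows in the tables. THZ1 is a covalent inhibitor of the transcriptional kinases CDK7, CDK12 and CDK13. RNA was sequenced from KURAMOCHI (Ku) cells, grown in RPMI, and from COV362 (Cov) cells, grown in DMEM, both established human ovarian cancer lines that carried no introduced construct. Each line was exposed for 6 hr to DMSO, the vehicle, or to THZ1 at 50 nM or 250 nM, with 2 libraries per condition and 12 in all. The paper states that treatments were done in duplicates, and whether these were separate cultures is not given in the sources used here, so p-values cover a spread that may be technical. Each line is 1 cell model, so differences between the lines cannot be told apart from differences in their medium and in the separate normalization of their tables, and no difference between lines was tested.

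RAS proteins are small GTPases that switch on the RAF, MEK and ERK kinases when growth factor receptors are active. *NRAS* encodes a RAS GTPase, *BRAF* a kinase that RAS activates, and *NF1* encodes neurofibromin, which switches RAS off by speeding its hydrolysis of GTP. *PIK3CA* encodes the catalytic subunit p110-alpha of PI3K, the lipid kinase whose product brings the AKT kinases to the membrane, and *AKT1* and *AKT2* encode members of the AKT family. Loss of *NF1* and gains of *PIK3CA* and *AKT2* are known alterations in high-grade serous ovarian cancer.

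The promoters of *NRAS* and *AKT1* are shown because these genes lay near opposite ends of the response. At 250 nM *NRAS* had the largest fall of the 6 in both lines, narrowly on FPKM itself, and *AKT1* one of the smallest. Both sequences come from RefSeq promoter windows of build GRCh38.p14, and each window had 1 exact match in GRCh37, the build whose coordinates are given. Each run ends at the base just before the annotated gene, reads 5′ to 3′ on the minus strand, and has GC boxes (GGGCGG on either strand) and the E-box CACGTG in capitals.
NRAS, chr1:115259393-115259492: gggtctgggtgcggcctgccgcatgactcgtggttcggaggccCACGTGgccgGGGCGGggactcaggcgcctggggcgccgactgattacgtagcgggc
AKT1, chr14:105262089-105262185: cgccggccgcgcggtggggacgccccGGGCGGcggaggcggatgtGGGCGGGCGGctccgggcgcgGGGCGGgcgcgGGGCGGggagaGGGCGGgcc
In the full 250 bases before its start, the *AKT1* window held 7 GC boxes, counting overlapping ones, and 83.2% G and C. A second RefSeq window of *AKT1*, which lies inside the gene as annotated here, held 1 GC box and 57.2% G and C. The *NRAS* window held 2 GC boxes, 1 E-box and 54.4% G and C. Of 35116 RefSeq promoter windows, 42.6% held a GC box and 6.34% the E-box, and the median content of G and C was 58%. None of these 3 windows held, in its 250 bases, a CCAAT box, the TATA box TATAAA, the ETS core CCGGAAG or the cyclic AMP response element TGACGTCA on either strand. These are matches of letters only.

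The values are FPKM, fragment counts scaled to transcript length and library size, that the authors had normalized to ERCC spike-in RNAs, synthetic transcripts mixed into RNA amounts set by cell number. A gene was counted as active when 1 or more of the 12 libraries had an FPKM above 1. This held for 14251 genes, and all 6 genes were above 1 in every library, with a lowest value of 2.44 FPKM, for *NF1* in a Ku library at 250 nM. Over active genes, replicates had a Pearson's r of 0.968 to 0.983. The spike-ins of a library deviated from the DMSO mean by a median of -0.0058 to 0.0451 log2 units. Because the values had been normalized to these same spike-ins, small deviations follow from that step and are no separate check of it. Of 7 markers of serous ovarian cells, 6 were above 1 FPKM in every group. The exception was *MUC16* in Ku cells and *WT1* in Cov cells, both below 1 FPKM in all libraries of that line. Markers of other cell types had summed FPKM of 0.592 to 2.07 for 4 immune genes, 3.44 to 11.8 for 3 endothelial genes and 1.06 to 3.42 for 3 fibroblast genes. The endothelial gene *CDH5* was above 1 FPKM in every group, with means of 8.23 in Ku DMSO and 7.75 in Cov DMSO. In Ku DMSO it lay above *EPCAM* (4.13), *KRT7* (4.61) and *MUC16*, and below *PAX8*, *WT1*, *KRT8* and *KRT18*. Read depth is unknown. In bulk RNA, less RNA per cell and fewer cells that express a gene cannot be told apart.

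At 250 nM all 6 genes were called lower than DMSO in both lines on the spike-in scale, whereas none was called lower when libraries were scaled to equal median FPKM or by median-of-ratios. A call required an adjusted p under 0.001 in limma and a log2 fold change beyond 0.5. At that dose 68.6% of all active genes were called lower in Ku and 84% in Cov, so the 6 genes shared a direction that most genes had. Both 250 nM libraries lay below both DMSO libraries for 6 of 6 genes in each line, as for 95.9% of active genes in Ku and 95.6% in Cov. The 6 genes had a median log2 fold change of -1.16 in Ku and -1.43 in Cov, beside -1.11 and -1.31 for all active genes. At 50 nM 0 of 6 were called in Ku cells, where 11.3% of active genes were lower, although 4 of 6 had an unadjusted p under 0.05, as had 8900 of the 14251 active genes. In Cov cells 4 of 6 were called lower at 50 nM, where 70.5% of active genes were. That count fell to 1 without DMSO replicate 1, to 0 without DMSO replicate 2 and to 2 without 50 nM replicate 1. Over all active genes the count called lower fell from 10042 to 6899, 4314 and 8492 in the same fits. The 50 nM libraries lay below the DMSO libraries for 4 of 6 genes in Ku (75.8% of active genes) and 6 of 6 in Cov (95.7%). The medians at 50 nM were -0.28 in Ku and -0.70 in Cov for the 6 genes, and -0.40 and -0.85 for all active genes. Both doses were compared with the same DMSO libraries. None of the 6 genes was called higher on the spike-in scale. The share of active genes called higher was 0.0842%, 0.0491% and 0.0421% in Ku for 50 nM, 250 nM and the step between the doses, and 0.0772%, 0.105% and 0.0842% in Cov. For 1 gene, the smallest exact two-sided permutation p from 2 libraries per group is 0.333, so the calls rest on the spread that limma pools across genes.

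**Figure D1:**
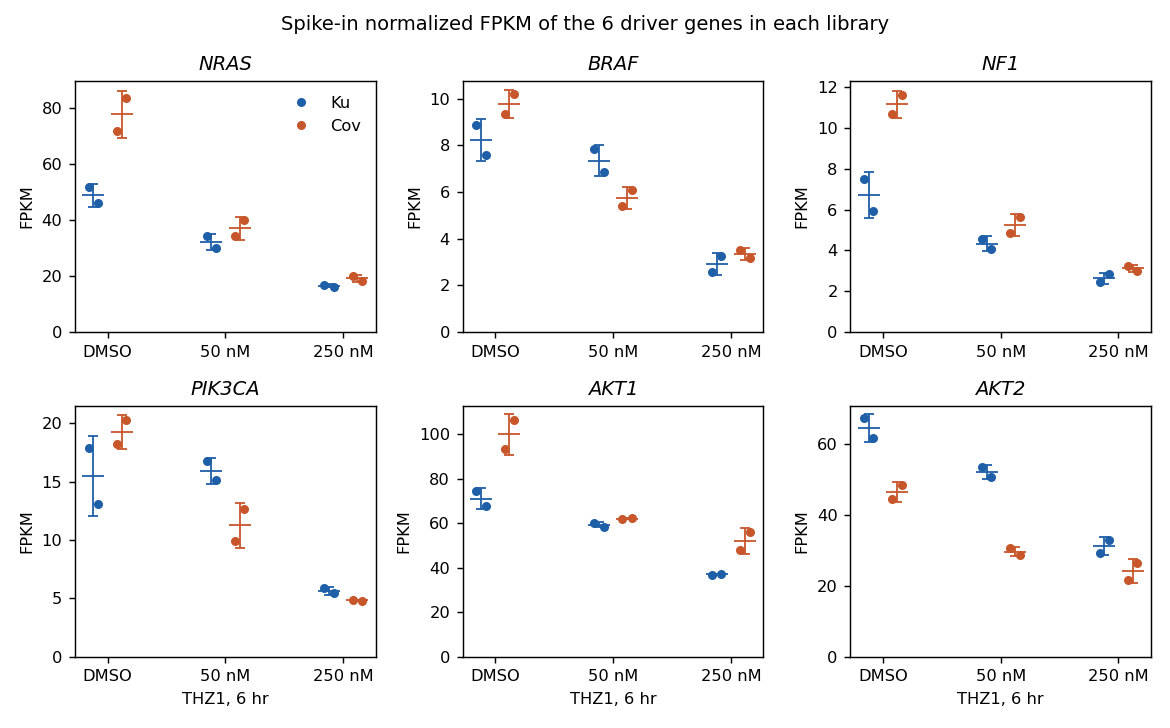
Spike-in normalized FPKM of the 6 genes (linear axes from 0) by condition in Ku and Cov cells. Points are libraries, and bars give the mean and SD of 2. In both lines every 250 nM library lies below every DMSO library, while the Ku points of BRAF and PIK3CA overlap between DMSO and 50 nM.

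*NRAS* had the largest fall at 250 nM. In Ku cells it measured 51.7 and 46.0 FPKM in DMSO, 34.3 and 30.1 at 50 nM, and 16.9 and 16.1 at 250 nM. The Cov libraries had 71.7 and 83.6 in DMSO, 34.2 and 39.9 at 50 nM, and 20 and 18.4 at 250 nM. The 3 conditions did not overlap in either line, and each higher dose had the lower libraries. The log2 fold change at 250 nM was -1.51 (SE 0.0975, adjusted p = 2.69e-05) in Ku cells, with 33.8% of the DMSO level remaining. In Cov cells it was -1.96 (SE 0.116, adjusted p = 3.07e-06), with 24.7% remaining. At 50 nM *NRAS* was called lower in Cov cells (-1.05, adjusted p = 0.000122), and in Ku cells its value of -0.59 (adjusted p = 0.00398) missed the threshold. The Cov call at 50 nM was lost without DMSO replicate 2 (adjusted p = 0.00124). Of all active genes, 32.2% in Ku and 21.6% in Cov had a larger fall than *NRAS* at 250 nM.

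*NF1*, the negative regulator of RAS, had the lowest level of the 6 in Ku DMSO libraries, with 7.50 and 5.93 FPKM. It measured 4.58 and 4.07 at 50 nM and 2.44 and 2.83 at 250 nM in these cells. In Cov cells the values were 10.7 and 11.6 in DMSO, 4.87 and 5.64 at 50 nM, and 3.25 and 3.0 at 250 nM. Again no condition overlapped another within a line. At 250 nM the log2 fold change was -1.08 (SE 0.156, adjusted p = 0.000743) in Ku cells and -1.56 (SE 0.109, adjusted p = 6.47e-06) in Cov cells. The Ku call rested on all 6 Ku libraries, since it was lost without any single one of them (adjusted p from 0.00102 to 0.00735). At 50 nM *NF1* was called lower in Cov cells (-0.96, adjusted p = 0.00014) and not in Ku cells (-0.53, adjusted p = 0.0299). Without either Cov DMSO library the 50 nM call was lost (adjusted p = 0.00107 and 0.00206). The *NF1* gene lies on chromosome 17 and contains *OMG*, *EVI2B* and *EVI2A* on the other strand. Whether the counting used strand is not given in the sources used here, so reads of these genes may enter its value. The *NF1P2* pseudogene row stayed at or below 0.213 FPKM in all libraries.

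*BRAF*, the RAF kinase downstream of RAS, was not separable from DMSO at 50 nM in Ku cells. Its FPKM was 8.85 and 7.58 in Ku DMSO, 7.83 and 6.86 at 50 nM, and 2.57 and 3.26 at 250 nM. The Cov values were 9.34 and 10.2 in DMSO, 5.39 and 6.07 at 50 nM, and 3.52 and 3.17 at 250 nM. The Ku libraries of DMSO and 50 nM overlapped (log2 fold change -0.14, 95% interval -0.52 to 0.24, adjusted p = 0.464), whereas those of Cov cells were separate (-0.68, adjusted p = 0.000681). At 250 nM *BRAF* was called lower in Ku (-1.24, SE 0.154, adjusted p = 0.000369) and in Cov (-1.31, SE 0.108, adjusted p = 1.44e-05). The Ku call was lost without either DMSO library or either 250 nM library, with adjusted p from 0.00117 to 0.00354. The Cov call at 50 nM was lost without any 1 of the Cov libraries other than 50 nM replicate 2 (adjusted p from 0.00113 to 0.00804). *BRAF* overlaps *NDUFB2* on the other strand of chromosome 7.

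*PIK3CA*, the catalytic PI3K subunit, did not have lower libraries at 50 nM than in DMSO in Ku cells. It measured 17.9 and 13.1 FPKM in Ku DMSO, 16.7 and 15.1 at 50 nM, and 5.92 and 5.44 at 250 nM. Cov libraries measured 18.3 and 20.3, then 9.92 and 12.6, then 4.86 and 4.79. In Ku cells both 50 nM libraries lay between the DMSO libraries, while in Cov cells the 3 conditions were separate. The Ku log2 fold change at 50 nM was 0.05 (95% interval -0.34 to 0.45, adjusted p = 0.795), and 93.2% of active genes had a lower value. Its sign rests on single libraries, since it was -0.16 without DMSO replicate 2 and -0.015 without 50 nM replicate 1. In Cov cells the value at 50 nM was -0.73 (adjusted p = 0.00108), which missed the threshold. At 250 nM *PIK3CA* was called lower in Ku (-1.29, SE 0.161, adjusted p = 0.000374) and in Cov (-1.80, SE 0.128, adjusted p = 6.89e-06), with 36.7% and 25% of the DMSO level left. The Ku call was lost without either 250 nM library (adjusted p = 0.00242 and 0.00318). *PIK3CA* overlaps *KCNMB3* on the other strand of chromosome 3.

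*AKT1* and *AKT2*, the AKT kinases, retained about equal shares of their DMSO level. *AKT1* measured 74.3 and 67.7 FPKM in Ku DMSO, 60.0 and 58.4 at 50 nM, and 36.8 and 37.2 at 250 nM. In Cov cells *AKT1* measured 93.2 and 106 in DMSO, 61.9 and 62.2 at 50 nM, and 48.0 and 56.0 at 250 nM. Conditions did not overlap, although the Cov libraries at 50 nM and 250 nM lay close together. *AKT2* measured 67.3 and 61.7 in Ku DMSO, 53.5 and 50.7 at 50 nM, and 29.4 and 33.1 at 250 nM. In Cov cells *AKT2* measured 44.5 and 48.5, then 30.6 and 28.7, then 21.7 and 26.5. *AKT2* was thus also separate between conditions in both lines.

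At 250 nM the *AKT1* log2 fold change was -0.92 (SE 0.0686, adjusted p = 4.33e-05) in Ku cells and -0.93 (SE 0.106, adjusted p = 8.47e-05) in Cov cells. For *AKT2* it was -1.02 (SE 0.0854, adjusted p = 6.64e-05) and -0.93 (SE 0.113, adjusted p = 0.000121). The share of DMSO FPKM remaining was 52.1% for *AKT1* in both lines, and 48.4% and 51.8% for *AKT2* in Ku and Cov. In Cov cells 71.0% of active genes had a larger fall than *AKT1* and 71.3% a larger fall than *AKT2*. In Ku cells these shares were 60.1% and 54.6%. At 50 nM *AKT1* was called lower in Cov cells (-0.67, adjusted p = 0.00065), and *AKT2* missed the threshold there (-0.63, adjusted p = 0.00122). This *AKT1* call was lost without either DMSO library or either 50 nM library (adjusted p from 0.00139 to 0.00493). Neither was called in Ku cells at 50 nM (*AKT1* -0.26, adjusted p = 0.0215, and *AKT2* -0.30, adjusted p = 0.0261). The Cov *AKT2* call at 250 nM was lost without DMSO replicate 2 (adjusted p = 0.00137).

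**Figure D2:**
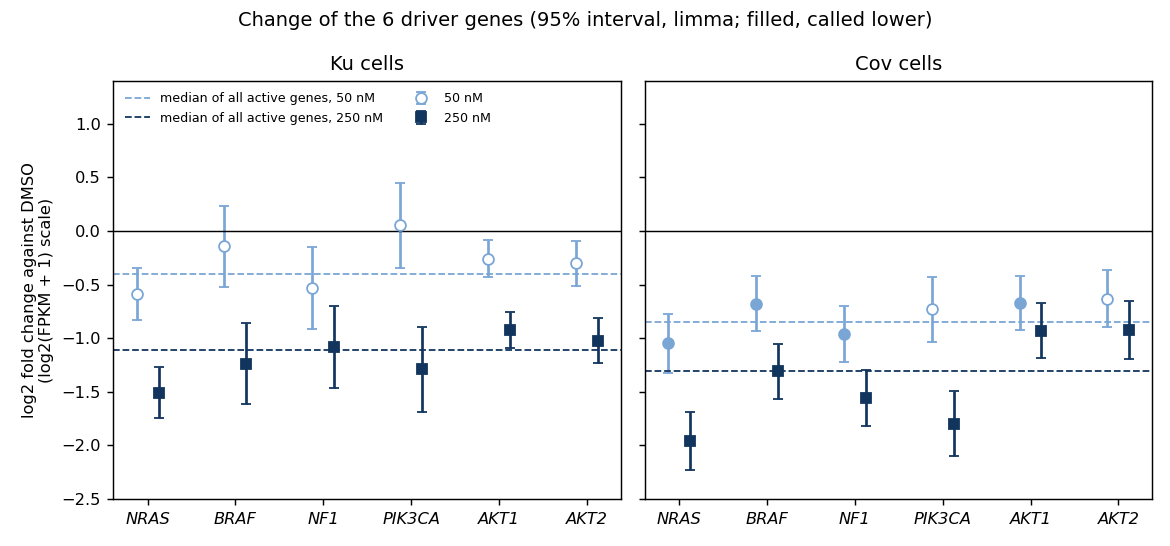
Log2 fold change against DMSO on the log2(FPKM + 1) scale with the 95% interval from limma, for the 6 genes in Ku (left) and Cov (right) cells. Filled symbols were called lower, and dashed lines give the median of all active genes, -0.40 and -1.11 in Ku and -0.85 and -1.31 in Cov at 50 nM and 250 nM. All 12 values at 250 nM are filled on the spike-in scale, and none of them was called lower under the other scalings.

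The step from 50 nM to 250 nM differed among the genes. The 250 nM libraries lay below the 50 nM libraries for 6 of 6 genes in each line, as for 87.7% of active genes in Ku and 75.6% in Cov. In Ku cells 4 of 6 were called lower at 250 nM than at 50 nM, where 36% of active genes were: *NRAS* (-0.92), *PIK3CA* (-1.34), *AKT1* (-0.66) and *AKT2* (-0.72). *BRAF* (-1.10, adjusted p = 0.00112) and *NF1* (-0.55, adjusted p = 0.0198) missed the threshold. In Cov cells 2 of 6 were called lower, beside 24.4% of active genes, and these were *NRAS* (-0.91) and *PIK3CA* (-1.07). The *AKT1* value for this step in Cov cells was -0.25 (adjusted p = 0.0751) and the *AKT2* value -0.29 (adjusted p = 0.0574). Without either 50 nM library or either 250 nM library, none of the Ku calls for this step was left, and the Cov count fell to 0 without any of 4 libraries (either DMSO or either 250 nM library). In Ku cells 4 of 6 genes had all DMSO libraries above all 50 nM libraries and these above all 250 nM libraries, an order that 66.7% of active genes showed. In Cov cells 6 of 6 showed it, beside 73.8% of active genes.

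The order of the 6 genes by FPKM, a measure per transcript length, shifted with dose in Cov cells, whereas in Ku cells it was the same in all 3 conditions. In Ku DMSO libraries *AKT1* was highest, followed by *AKT2*, *NRAS*, *PIK3CA*, *BRAF* and *NF1*, and the libraries of each neighbouring pair did not overlap. In Cov DMSO libraries the order was *AKT1*, *NRAS*, *AKT2*, *PIK3CA*, *NF1* and *BRAF*, again without overlap. At 250 nM both lines had *AKT1*, *AKT2*, *NRAS* and *PIK3CA* in that order, above *BRAF* and *NF1*, whose libraries overlapped. *NRAS* thus lay above *AKT2* in Cov DMSO, at 77.7 ± 8.39 against 46.5 ± 2.89 FPKM (SD, n = 2), and below it at 250 nM, at 19.2 ± 1.15 against 24.1 ± 3.35. The tables of the lines were normalized separately, so levels are compared within a line.

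Ratios between genes of the same library do not depend on how libraries are scaled. The ratio of *NRAS* to *AKT1* in Ku cells was 0.695 and 0.679 in DMSO, 0.571 and 0.516 at 50 nM, and 0.460 and 0.432 at 250 nM. In Cov cells it was 0.769 and 0.786, then 0.552 and 0.641, then 0.417 and 0.328. *NRAS* RNA was therefore lower relative to *AKT1* RNA at each dose in both lines, without overlap between conditions. These 2 genes had the least alike changes of the 6 in these same libraries, so the separation is no separate result. For none of the ratios given here was the share of other gene pairs with such a separation computed. The ratio of *AKT1* to *AKT2* was 1.10 in both Ku DMSO libraries and 1.25 and 1.13 at 250 nM. In Cov cells it was 2.10 and 2.19 in DMSO and 2.21 and 2.12 at 250 nM, which overlapped. The ratio of *NRAS* to *NF1*, the GTPase and its negative regulator, was 6.89 and 7.76 in Ku DMSO, 7.48 and 7.41 at 50 nM, and 6.92 and 5.69 at 250 nM, where it overlapped DMSO. In Cov libraries it was 6.72 and 7.19, then 7.01 and 7.07, then 6.16 and 6.12, with both 250 nM libraries below the others.

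**Figure D3:**
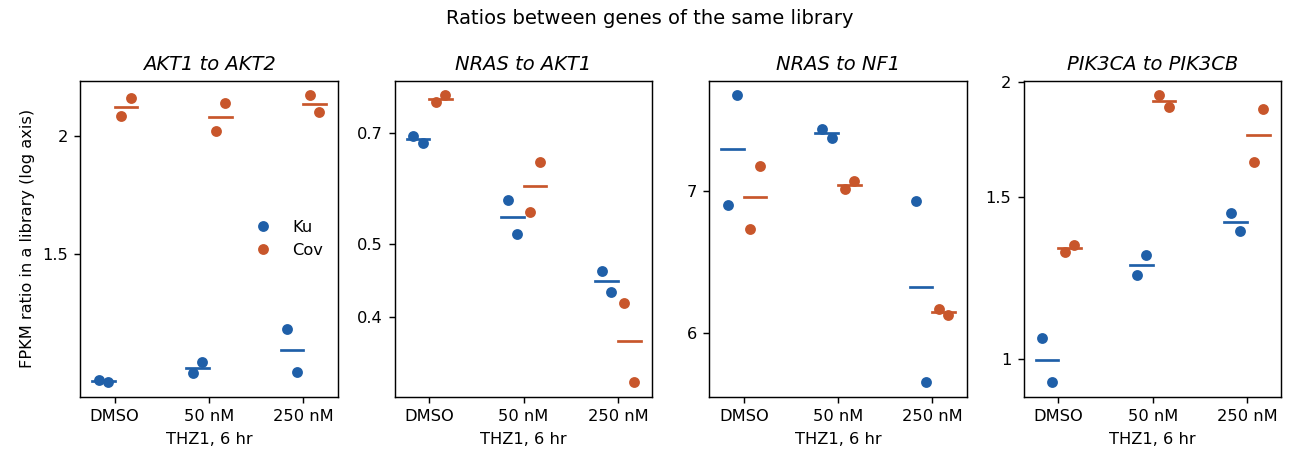
FPKM ratio between 2 genes of the same library (log axis) by condition in Ku and Cov cells. Points are libraries and bars the mean of 2. The NRAS to AKT1 ratio is lower at each dose in both lines, and the PIK3CA to PIK3CB ratio is higher in treated than in DMSO libraries of each line.

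*PIK3CA* RNA was higher after treatment relative to *PIK3CB*, which encodes the p110-beta subunit. The *PIK3CA* to *PIK3CB* ratio was 1.05 and 0.944 in Ku DMSO libraries, 1.24 and 1.30 at 50 nM, and 1.44 and 1.38 at 250 nM. In Cov libraries it was 1.31 and 1.33 in DMSO, 1.93 and 1.88 at 50 nM, and 1.64 and 1.87 at 250 nM. Treated libraries lay above the DMSO libraries in both lines, and the ratio was highest at 250 nM in Ku and at 50 nM in Cov. The ratio of *BRAF* to *ARAF*, another RAF kinase gene, was higher at 50 nM than in DMSO without overlap in both lines. In Ku libraries it was 0.275 and 0.267 in DMSO, 0.445 and 0.406 at 50 nM, and 0.246 and 0.313 at 250 nM, where it overlapped DMSO. In Cov libraries it was 0.194 and 0.188, then 0.202 and 0.237, then 0.183 and 0.155, with the 250 nM libraries below those of DMSO.

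Of 59 other genes of the pathways, 57 were active. On the spike-in scale, 250 nM THZ1 left 50 of these called lower in Ku, where 68.6% of all active genes were, and 56 in Cov, where 84% were, with 0 called higher in either line. The Ku count fell to 27 without 250 nM replicate 1 and to 35 without DMSO replicate 1, while the count over all active genes fell from 9774 to 6085 and 7293. The median log2 fold change of the list was -1.40 in Ku and -1.41 in Cov, beside -1.11 and -1.31 for all active genes. At 50 nM 2 were called lower in Ku cells, beside 11.3% of active genes: *RPTOR* (-1.21) and *MLST8* (-0.98), both parts of mTOR complexes, named after their values were seen. Without any single Ku library this count was 0 or 1. In Cov cells 48 were called lower at 50 nM, beside 70.5% of active genes, and the count fell to 19 without DMSO replicate 2 and to 30 without DMSO replicate 1, fits that left 4314 and 6899 active genes called lower. At this dose 3 of 57 list genes had libraries above DMSO in Ku and below DMSO in Cov, beside 2.65% of active genes. At 250 nM the balance of calls turned with the scaling. Equal median scaling gave 10 lower and 12 higher in Ku, where 11.7% and 27% of active genes were, and 9 lower and 20 higher in Cov, where 11.3% and 26.6% were. Median-of-ratios scaling gave 13 lower and 7 higher in Ku, beside 19% and 11.1% of active genes, and 16 lower and 4 higher in Cov, beside 18.9% and 8.57%. Of the 57 genes, 4 were at or below 1 FPKM in every Ku library and counted as active through Cov libraries alone: *INPP4B*, and *PHLPP1*, *RASGRP1* and *SPRED3*, the last 3 named after their values were seen. At such levels the log2(FPKM + 1) scale keeps changes small, and Ku counts that include these genes are limited by it. *RASGRP1* and *SPRED3* were above 1 FPKM only in Cov DMSO libraries. Cov counts against DMSO thus include these genes, which were admitted by the group where they are high.

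Among RAS GTPases and their activators, 11 of 12 active genes were called lower at 250 nM in Ku, beside 68.6% of all active genes, and 12 of 12 in Cov, beside 84%. The gene not called in Ku was *RASGRP1*, with 0.136 FPKM in both DMSO libraries. It counted as active only through 1 Cov DMSO library (1.24 FPKM, with 0.957 in the other), so its Cov call rests on the group that admitted it. *HRAS*, which encodes a RAS GTPase, had -1.40 in Ku and -1.10 in Cov. *PTPN11*, which encodes the phosphatase SHP2 that promotes RAS activation, had -0.85 and -1.13 in Ku and Cov. Among RAS GTPase-activating proteins and SPRED genes, 8 of 9 were called lower in Ku and 9 of 9 in Cov, beside the same shares of active genes, with medians of -1.58 and -1.99. The Cov count includes *SPRED3*, which was above 1 FPKM only in the Cov DMSO libraries (2.10 and 2.47) and was admitted through them. *RASA1*, a GTPase-activating protein like neurofibromin, had -1.61 and -2.32, and *SPRED1*, whose protein brings neurofibromin to the membrane, had -2.06 and -2.26. The corresponding *NF1* values, -1.08 and -1.56, were smaller falls than both in each line, a difference that was not tested.

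All 6 genes for RAF, MEK, ERK and scaffolds were called lower at 250 nM in Ku and in Cov, where 68.6% and 84% of all active genes were. The RAF kinase gene *ARAF* had -1.45 and -1.32 in Ku and Cov and was called lower like *BRAF*. The MEK genes *MAP2K1* (-0.71 and -1.24) and *MAP2K2* (-1.37 and -0.86) and the ERK gene *MAPK3* (-0.72 and -0.68) were also called lower in both lines.

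All 7 genes for other PI3K subunits and adaptors were called lower at 250 nM in both lines, beside 68.6% of active genes in Ku and 84% in Cov. The regulatory subunit gene *PIK3R1* had -2.73 in Ku cells and -2.94 in Cov cells, where it was the list gene with the largest fall on the log2(FPKM + 1) scale. It measured 8.99 and 6.98 FPKM in Ku DMSO and 0.346 and 0.350 at 250 nM. *PIK3R3*, another regulatory subunit gene, had the largest fall of the list in Ku cells on that scale (-3.52), from 44.8 and 35.6 FPKM to 2.32 and 2.83. By FPKM itself *PIK3R1* fell more there, with a mean 22.9 times lower against 15.6 times for *PIK3R3*. *PIK3R2* had -1.50 and -0.93, *PIK3CB* -1.70 and -2.05, and *PIK3CD*, a catalytic subunit gene, -1.52 and -2.0.

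Of 5 active genes for phosphatases that oppose PI3K and AKT, 3 were called lower at 250 nM in Ku, beside 68.6% of all active genes, and 5 in Cov, beside 84%. The 2 not called in Ku were *INPP4B* and *PHLPP1*, both below 1 FPKM in all Ku libraries. *INPP4B*, a lipid phosphatase gene, had 0.280 and 0.203 FPKM in Ku DMSO, where the log2(FPKM + 1) scale leaves little room for a fall, and its value of -0.04 (adjusted p = 0.522) was the highest of the list. *PHLPP1*, an AKT phosphatase gene, kept 30.4% of its Ku DMSO level at 250 nM, which was -0.46 on that scale. Among 11 genes for PDK1 and the mTOR complexes, 9 were called in Ku and 11 in Cov, against 68.6% and 84% of active genes. *PDPK1*, which encodes the kinase that activates AKT, had -2.32 and -2.41, *MTOR* -1.19 and -1.31, and the mTOR complex inhibitors *TSC1* -1.42 and -2.01 and *TSC2* -0.78 and -0.84. Of 7 AKT substrates, 6 were called lower in each line, beside 68.6% of active genes in Ku and 84% in Cov. *FOXO4*, a transcription factor gene, had the highest value of the list in Cov cells (-0.40, adjusted p = 0.00565).

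**Figure D4:**
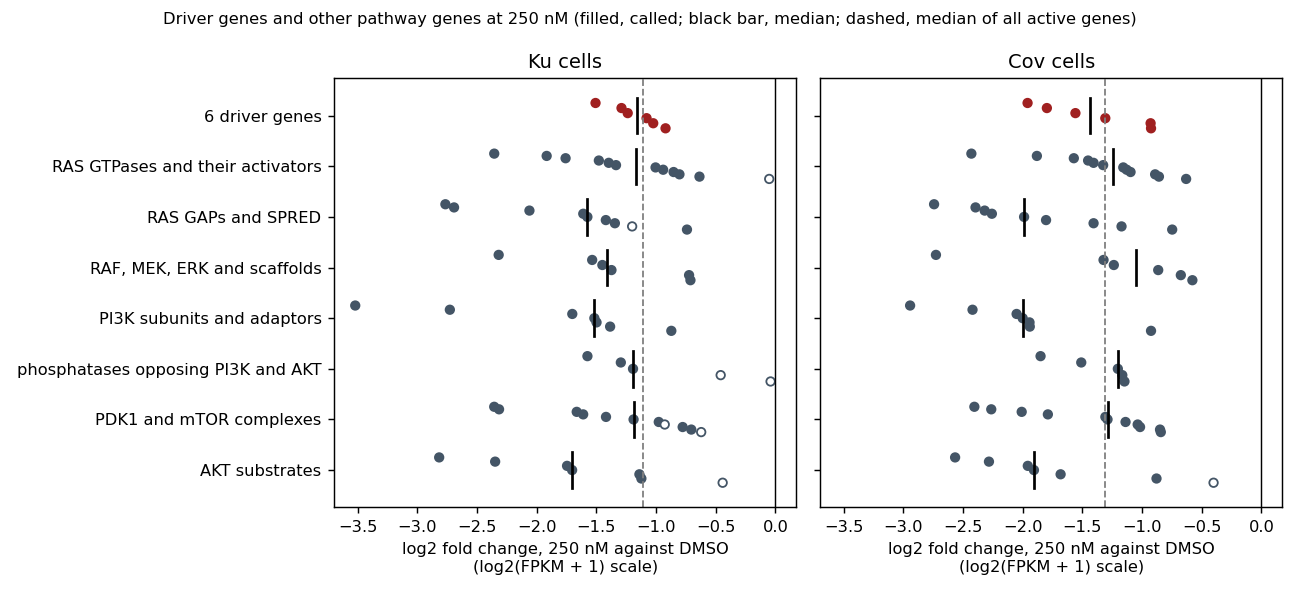
Log2 fold change at 250 nM against DMSO on the log2(FPKM + 1) scale for the 6 genes (top row) and other pathway genes by role, in Ku (left) and Cov (right) cells. Each point is a gene, filled where called, black bars are group medians, and the dashed line is the median of all active genes (-1.11 and -1.31). The medians of the 6 genes, -1.16 and -1.43, lie near that line on the spike-in scale, and under the other scalings none of the 6 was called lower.

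The genes most like each of the 6 were found by the root-mean-square difference of log2 change over the 8 treated libraries, each against the DMSO mean of its line, among 14222 genes. *NRAS* was nearest to *FANCL* (0.0449) and *NIPA2* (0.0652), *BRAF* to *AVEN* (0.0778) and *AK4* (0.0816), and *NF1* to *MON2* (0.0576) and *ZNF280D* (0.0606). *PIK3CA* was nearest to *RAB22A* (0.0768) and *MIA3* (0.0811), *AKT1* to *UNC45A* (0.0407) and *CDIPT* (0.0470), and *AKT2* to *LPPR2* (0.0510) and *TNPO2* (0.0596). Among the 6 genes themselves, *AKT1* and *AKT2* were the closest pair (0.0761) and *NRAS* and *AKT1* the farthest (0.652).

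The 6 genes differ widely in length and level. On GRCh37, *NRAS* spans 12.3 kb (chr1:115247090-115259392) and *AKT1* 26.4 kb (chr14:105235686-105262088). *AKT2* spans 55.2 kb (chr19:40736224-40791443), *PIK3CA* 92.0 kb (chr3:178865902-178957881), *BRAF* 206 kb (chr7:140419127-140624729) and *NF1* 287 kb (chr17:29421945-29709134). *NRAS* thus fell in the second quintile of gene lengths and *BRAF* and *NF1* in the longest, while the median log2 fold change at 250 nM of these quintiles was -1.19 and -1.06 in Ku and -1.33 and -1.34 in Cov. By DMSO level *BRAF* and *PIK3CA* lay in the middle quintile in both lines, whose median at 250 nM was -1.55 in Ku and -1.70 in Cov. *NRAS* and *AKT1* both lay in the highest quintile in each line, whose medians were -1.0 and -1.27, *NRAS* with larger falls than these (-1.51 and -1.96) and *AKT1* with smaller ones (-0.92 and -0.93).

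The direction of many of these changes differed with the scaling of the libraries. After libraries were scaled to equal median FPKM of active genes, *AKT1* and *AKT2* were called higher at 250 nM in both lines, with log2 fold changes of 1.03 and 0.92 in Ku and 1.12 and 1.09 in Cov. The other 4 genes then had values of 0.41 to 0.54 in Ku and 0.06 to 0.46 in Cov, none of them called. This scaling left the median of all active genes at 0.30 in Ku and 0.33 in Cov, and the calls over all active genes were 1664 lower with 3853 higher in Ku and 1613 with 3789 in Cov, against 9774 with 7 and 11971 with 15 on the spike-in scale. Relative to that median, all 6 genes were higher in Ku, while in Cov *AKT1*, *AKT2* and *BRAF* were higher and *NF1*, *NRAS* and *PIK3CA* lower, with no test of these differences. Median-of-ratios scaling had the reverse balance of calls over all active genes, 2708 lower with 1577 higher in Ku and 2694 with 1221 in Cov. With median-of-ratios scaling, where the median of all active genes was -0.00088 in Ku and 0.01 in Cov at 250 nM, *NRAS* had -0.10 in Ku and -0.39 in Cov, and *AKT1* had 0.51 in Ku, called higher, and 0.66 in Cov, not called. *NF1* and *PIK3CA* were then above 0 in Ku (0.095 and 0.025) and below 0 in Cov (-0.19 and -0.34), none of them called. The *PIK3CA* value for the step from 50 nM to 250 nM stayed below 0 under equal median and median-of-ratios scaling, at -0.20 and -0.54 in Ku and -0.34 and -0.57 in Cov, but was not called under either.

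**Figure D5:**
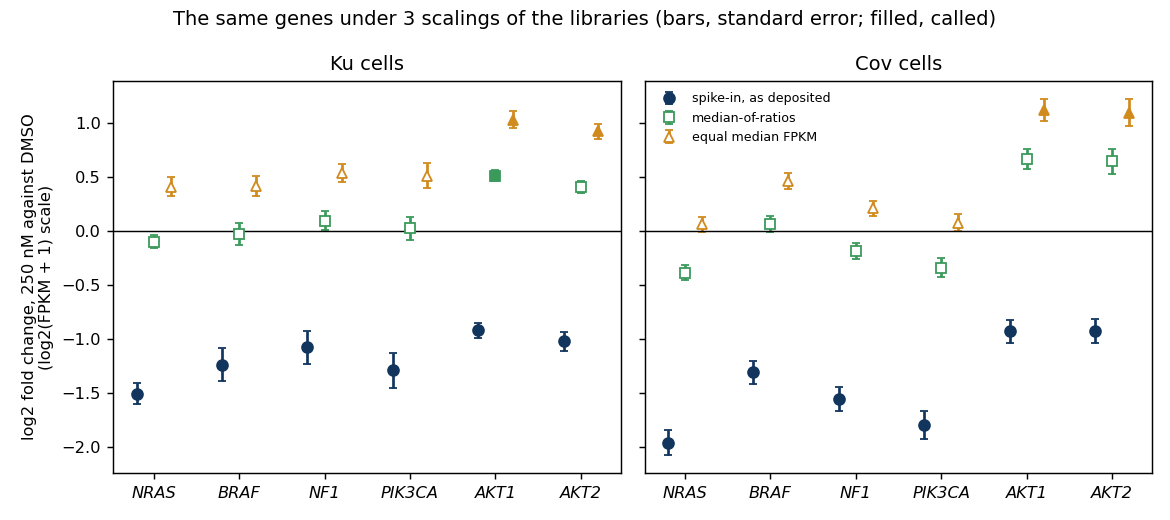
Log2 fold change at 250 nM against DMSO on the log2(FPKM + 1) scale for the 6 genes under 3 scalings of the libraries, in Ku (left) and Cov (right) cells. Bars are standard errors and filled symbols were called. All 12 values are below 0 on the spike-in scale and above 0 at equal median FPKM, and AKT1 and AKT2 are the highest of the 6 genes in each line under every scaling shown.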

How the data were processed

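The study measured polyA RNA by stranded, single-end RNA-seq in 12 libraries. The authors mixed ERCC spike-ins into RNA set by cell number, used HiSat to align reads to hg19, and deposited spike-in normalized FPKM from Cufflinks (cuffquant and cuffnorm) separately for each line. Because FPKM are not counts, the edgeR test the paper names was replaced by limma 3.58.1 in R 4.3.3. Groups come from the labels. Each line was fitted separately on log2(FPKM + 1) with 3 groups of 2 libraries, using lmFit and eBayes with a trend. Fold changes on this scale understate those of low genes. P-values were two-sided and adjusted by the Benjamini-Hochberg method over 14251 active genes. Genes were called where the adjusted p was under 0.001 with a log2 fold change beyond 0.5. P-values cover the spread between these libraries only.

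The 6 genes and the gene lists, written from general knowledge, were chosen with earlier results of these data known. Some pathway genes are not reported here. Named pathway genes were a fixed subset of the list, plus the list gene with the lowest and highest value at 250 nM in each line, and the 2 nearest genes of each of the 6. Pathway genes outside this rule (*RPTOR*, *MLST8*, *PHLPP1*, *RASGRP1*, *SPRED3* and *GRB2*) were named after their values were seen. Positions are from the GENCODE annotation lifted to GRCh37, and 89.5% of active genes had a length by symbol. Software included data.table (version 1.17.8), Python 3.11.15, pandas 2.3.3, numpy 2.4.6 and matplotlib 3.10.9. The limma step was first tested on simulated data. Alternatives were another pseudocount (0.1), a minimum FPKM of 10 or none, both scalings, fits limited to the groups compared, with a replicate block or without the trend, thresholds of 0.05 on the adjusted p or of 1 on the log2 fold change, and each library left out.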

Additional observations from a re-analysis of the deposited data

Results flagged for a closer look

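At 50 nM, on the spike-in scale, 3 of 57 active pathway genes had both treated libraries above both DMSO libraries in Ku cells and below them in Cov cells. The same split was seen in 2.65% of all active genes (378 of 14251). The median log2 fold change of all active genes at this dose was -0.40 in Ku and -0.85 in Cov. The log2 fold change of *GRB2*, an adaptor that links receptors to RAS activation, was 0.19 in Ku (adjusted p = 0.0579) and -0.62 in Cov (adjusted p = 0.001). For *MAP2K1*, which encodes MEK1, it was 0.087 in Ku (adjusted p = 0.361) and -0.56 in Cov (adjusted p = 0.000751). For *PHLPP1*, an AKT phosphatase gene, it was 0.054 in Ku (adjusted p = 0.401) and -1.02 in Cov (adjusted p = 6.98e-05). *PHLPP1* was at 0.637 to 0.707 FPKM in Ku DMSO and 50 nM libraries and below 1 FPKM in every Ku library, so it counted as active through Cov libraries alone. The adjusted p-values are from limma. None of the 3 was called in Ku cells, *MAP2K1* and *PHLPP1* were called lower in Cov cells, and the difference between the lines was not tested. None of the 6 driver genes showed such a split.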

How the results depend on the processing

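On the spike-in scale, the count of the 6 genes called lower at 250 nM stayed at 4 to 6 in Ku and 4 to 6 in Cov cells under the alternatives that kept all libraries of the groups compared. Those of these fits that tested 14251 active genes called 7623 to 11587 of them lower in Ku and 9486 to 12580 in Cov. Without a minimum FPKM, 23621 genes were tested and 0 of 6 were called for 250 nM against 50 nM in either line (1901 genes in all in Ku, 2127 in Cov) and 2 for Cov 50 nM (8286). With a minimum FPKM of 10, 9384 genes were tested, and 5 of 6 were called for Cov 50 nM (7539 genes in all) and 5 for Ku 250 nM against 50 nM (5116). Numbers in the parentheses that follow are the active genes called lower in the same fit, of 14251. A pseudocount of 0.1 gave 6 for Cov 50 nM (10033), with *AKT2* and *PIK3CA* then called, and 5 for Ku 250 nM against 50 nM (6178). At an adjusted p under 0.05 the count was 2 for Ku 50 nM (5734), 6 for Ku 250 nM against 50 nM (8295), 6 for Cov 50 nM (11691) and 4 for Cov 250 nM against 50 nM (5909). At a log2 fold change beyond 1 it was 1 for Ku 250 nM against 50 nM (3598), 1 for Cov 50 nM (5054) and 1 for Cov 250 nM against 50 nM (2035). A fit of only the 2 groups compared gave 1 for Cov 250 nM against 50 nM (2420). With each library left out in turn, the counts ranged from 0 to 0 for Ku 50 nM (6 to 131 active genes), 3 to 5 for Ku 250 nM (6085 to 9044), 0 to 3 for Ku 250 nM against 50 nM (791 to 4599), 0 to 4 for Cov 50 nM (4314 to 9929), 5 to 6 for Cov 250 nM (10451 to 12341) and 0 to 2 for Cov 250 nM against 50 nM (1518 to 3974). The Cov 50 nM count was 1 without DMSO replicate 1, 0 without DMSO replicate 2 and 2 without 50 nM replicate 1. The fits without a library assume that the lone library left varies like the others. The *PIK3CA* log2 fold change at Ku 50 nM turned to -0.16 without Ku DMSO replicate 2 and to -0.015 without Ku 50 nM replicate 1.

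Gene deviations of same-numbered libraries correlated by -0.00871 to 0.000345 in Ku cells and -0.0703 to 0.0282 in Cov cells. The median difference between the 2 libraries of each group was removed first, so a shift shared by same-numbered libraries is not seen. Summed FPKM was higher in replicate 1 in every Ku group and in replicate 2 in every Cov group. Whether the replicate numbers pair the libraries is therefore unknown. With the replicate block, the counts were 0, 4 and 4 in Ku cells for 50 nM, 250 nM and 250 nM against 50 nM, and 2, 6 and 0 in Cov cells. The same fits called 989, 9485 and 4952 active genes lower in Ku and 7266, 11202 and 1130 in Cov, against 1607, 9774 and 5132 and 10042, 11971 and 3474 without the block.

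Equal median scaling and median-of-ratios scaling left 0 of 6 genes called lower in every comparison. Under equal median scaling the log2 fold changes at Ku 50 nM turned to 0.44 (*AKT1*), 0.39 (*AKT2*), 0.47 (*BRAF*), 0.064 (*NF1*) and 0.10 (*NRAS*). At Ku 250 nM they turned to 1.03 (*AKT1*), 0.92 (*AKT2*), 0.41 (*BRAF*), 0.54 (*NF1*), 0.41 (*NRAS*) and 0.51 (*PIK3CA*), and for Ku 250 nM against 50 nM to 0.59 (*AKT1*), 0.53 (*AKT2*), 0.47 (*NF1*) and 0.31 (*NRAS*). At Cov 50 nM they turned to 0.53 (*AKT1*), 0.56 (*AKT2*), 0.39 (*BRAF*), 0.12 (*NF1*), 0.15 (*NRAS*) and 0.41 (*PIK3CA*). At Cov 250 nM they turned to 1.12 (*AKT1*), 1.09 (*AKT2*), 0.46 (*BRAF*), 0.21 (*NF1*), 0.060 (*NRAS*) and 0.073 (*PIK3CA*), and for Cov 250 nM against 50 nM to 0.59 (*AKT1*), 0.54 (*AKT2*), 0.067 (*BRAF*) and 0.091 (*NF1*). Under median-of-ratios scaling they turned to 0.29 (*AKT1*), 0.25 (*AKT2*) and 0.34 (*BRAF*) at Ku 50 nM, to 0.51 (*AKT1*), 0.40 (*AKT2*), 0.095 (*NF1*) and 0.025 (*PIK3CA*) at Ku 250 nM, and to 0.22 (*AKT1*), 0.16 (*AKT2*) and 0.15 (*NF1*) for Ku 250 nM against 50 nM. In Cov cells they turned to 0.34 (*AKT1*), 0.37 (*AKT2*), 0.22 (*BRAF*) and 0.23 (*PIK3CA*) at 50 nM, to 0.66 (*AKT1*), 0.64 (*AKT2*) and 0.059 (*BRAF*) at 250 nM, and to 0.32 (*AKT1*) and 0.27 (*AKT2*) for 250 nM against 50 nM. Median-of-ratios scaling removes a shift common to most genes by construction. Equal median scaling instead sets the median FPKM equal. The median log2 fold change of all active genes at 250 nM was then 0.30 in Ku and 0.33 in Cov. Read depth is unknown, so no counting error can be given.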
